A study of Mus musculus with 8 samples.

Results

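The Hox genes of hair follicle stem cells sorted from mouse back skin are described here. They were chosen by name: every gene called Hoxa, Hoxb, Hoxc or Hoxd followed by a paralog number, 39 genes of the 28792 gene symbols in the deposited tables. All 39 were present in both tables. No measured value entered the choice.

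Hox genes encode transcription factors that bind DNA through a homeodomain. They lie in 4 clusters, Hoxa to Hoxd, and genes of the same position in different clusters are paralogs that carry the same number, from 1 to 13. Low numbers are used towards the head and high numbers towards the tail and the limb tips, and adult skin keeps a record of its body position in the Hox genes it expresses. Hoxc13 is the known exception in skin, since it is used by hair follicles and nails over the whole body and controls hair keratin genes.

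Of the 8 samples of the series, 4 are RNA sequencing libraries and form 2 pairs, with 1 library in each group. The first pair came from P99 female mice of strain C57BL6/129Sv that carried K15CrePGR, a Cre recombinase under a keratin 15 promoter, and the reporter Rosa-YFPfl/stop/fl. The Het group had 1 floxed and 1 normal copy of Ctnnb1, the gene of β-catenin (Ctnnb1+/fl), and the cKO group had both copies floxed (Ctnnb1fl/fl). The Het cells thus also carried Cre, reporter and a floxed allele. The labels give the stage of this pair as telogen, the resting phase, in one place and as the onset of anagen, the growth phase, in another. The second pair came from P24 male C57BL6 mice heterozygous for a LacZ insertion in Axin2, a Wnt target gene (Axin2LacZ/+), at the passage from telogen to anagen. Their bulge cells were sorted by LacZ activity into a positive and a negative group, so both groups lack 1 intact Axin2 copy. The sources used here do not state whether several mice were pooled for a library. The other 4 samples, of chromatin, were not analysed here.

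Ctnnb1 (mm9 chromosome 9, 120833572 to 121186315, an interval of 4 rows) stood at 370 FPKM in cKO-labelled cells, 251 in Het-labelled cells, 348 in LacZ-positive cells and 344 in LacZ-negative cells. Its level over the whole gene does not show the floxed part on its own and so is no check of the genotypes, but it ran opposite to a loss, and the first 2 libraries are therefore named by their labels. Axin2 stood at 2.124, 16.34, 18.98 and 9.10 FPKM in the same order, and so was lower in cKO-labelled than in Het-labelled cells.

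Values are FPKM, fragments per length of transcript and per size of the library, and hold no read counts, so that their depth is unknown. Since a group is 1 library, every difference below compares libraries and has no replicate error. The tables give 26 of the 39 Hox genes an interval that they share with other rows, so reads of neighbouring genes can enter their values. Of the 13 genes alone in their interval, 3 reached 1 FPKM: Hoxb9, Hoxc4 and Hoxc13. The labelled cell type could be read from 8 bulge and basal keratinocyte markers, all at 1 FPKM or more in cKO-labelled cells, Het-labelled cells and LacZ-positive cells and 7 of them in LacZ-negative cells, where Krt15 is listed at 0. Apart from that 0, marker genes of other cell types were lower, at up to 15.2 FPKM (Dct in LacZ-positive cells), which is within the range of the Hox genes. The summed level of 6 fibroblast and dermal papilla markers was 23.1 and 14.8 FPKM in cKO- and Het-labelled cells. It was 10.9 and 18.1 FPKM in LacZ-positive and LacZ-negative cells, most of it Col1a1 and Col1a2. The summed level of 5 melanocyte markers was 1.54 and 2.58 FPKM in cKO- and Het-labelled cells and 18.1 and 13.5 FPKM in LacZ-positive and LacZ-negative cells, most of it Dct. Sums stayed at or under 5.30 FPKM for 5 leukocyte markers, 0.324 FPKM for 3 endothelial markers and 4.76 FPKM for 3 muscle and nerve markers, the last almost wholly Mbp. In such bulk values, fewer cells of a type and less RNA per cell cannot be told apart.

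Bulge cells of the back expressed a central block of Hox genes, and of the tail-end numbers only Hoxc13. Of the 39 genes, 24 reached 1 FPKM in cKO- and Het-labelled cells, 23 in LacZ-negative and 22 in LacZ-positive cells. Among all symbols of the tables, 43.7% reached this level in cKO-labelled cells, 44% in Het-labelled cells, 44.9% in LacZ-positive cells and 44% in LacZ-negative cells. By cluster, 8 of 11 Hoxa, 8 of 10 Hoxb and 5 of 9 Hoxc genes were at 1 FPKM or more in all 4 libraries, as against 1 of 9 Hoxd genes. Paralogs 5 to 9, 15 genes, held 77.3%, 73.1%, 69.2% and 75.5% of the summed Hox FPKM in cKO-labelled cells, Het-labelled cells, LacZ-positive and LacZ-negative cells. Paralogs 1 to 4, 12 genes, held 20.8%, 23.4%, 25.6% and 20.1% of it in the same order.

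**Figure D1:**
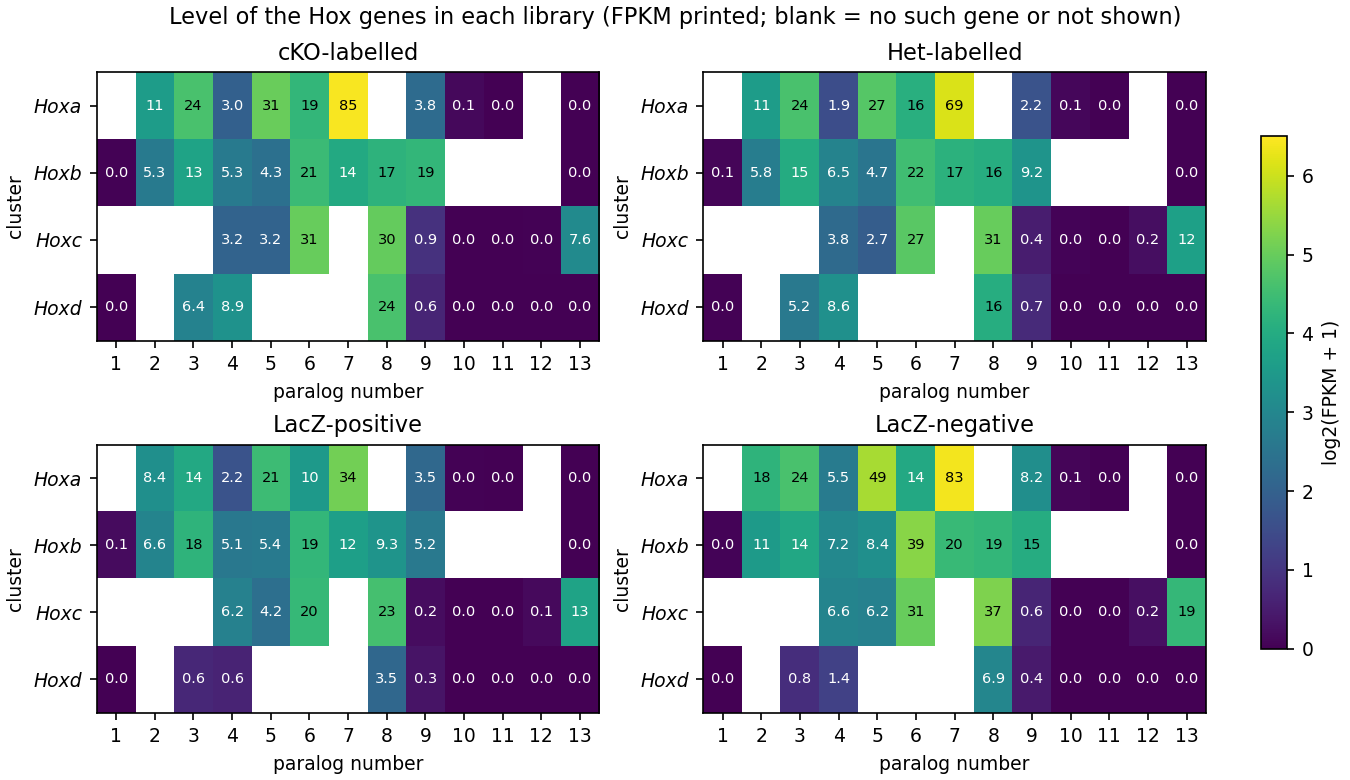
Level of the Hox genes in the 4 libraries, clusters in rows and paralog numbers in columns, coloured by log2(FPKM + 1) with the FPKM printed and blank cells where nothing is shown. The bright block spans paralogs 2 to 9, Hoxa7 is the brightest gene in every library, and to the right of paralog 9 only Hoxc13 exceeds 1 FPKM.

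The 15 genes under 1 FPKM in all 4 libraries were Hoxa10, Hoxa11, Hoxa13, Hoxb1, Hoxb13, Hoxc9, Hoxc10, Hoxc11, Hoxc12, Hoxd1, Hoxd9, Hoxd10, Hoxd11, Hoxd12 and Hoxd13. Of these, 6 are listed at 0 in every library: Hoxa13, Hoxb13, Hoxc11, Hoxd10, Hoxd12 and Hoxd13. Hoxc9 came nearest to the threshold, at 0.913 FPKM in cKO-labelled cells, 0.440 in Het-labelled cells, 0.165 in LacZ-positive cells and 0.601 in LacZ-negative cells, and Hoxd9 followed at 0.607, 0.698, 0.259 and 0.386. Between a Hoxc8 gene above 22 FPKM and Hoxc13, the genes Hoxc9 to Hoxc12 thus all stayed under 1 FPKM. Hoxc9 and Hoxc10 share an interval with Hoxc8, so this step can depend on how reads were split among them.

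Among the head-end genes, paralogs 1 to 4, Hoxa3 was highest in cKO-labelled cells, Het-labelled cells and LacZ-negative cells and Hoxb3 in LacZ-positive cells. Hoxb1 and Hoxd1 stayed at or under 0.139 FPKM in every library. Hoxa2, a selector gene of the second pharyngeal arch, stood at 11.1 FPKM in cKO-labelled cells, 11.0 in Het-labelled cells, 8.43 in LacZ-positive cells and 17.6 in LacZ-negative cells. Hoxb2 stood at 5.29, 5.76, 6.64 and 10.6 FPKM in the same order of libraries. Both paralog 2 genes were highest in LacZ-negative cells.

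Hoxa3, whose 2 rows were summed, stood at 23.9 FPKM in cKO-labelled cells, 23.6 in Het-labelled cells, 14.1 in LacZ-positive cells and 23.8 in LacZ-negative cells. Hoxb3 stood at 12.7, 14.9, 17.8 and 13.8 FPKM and was the only one of the 23 Hox genes measured in the LacZ pair that was higher in LacZ-positive cells. Among paralog 4 genes, Hoxb4, known for its effect on blood stem cells, stood at 5.29, 6.53, 5.06 and 7.18 FPKM and Hoxa4 at 2.95, 1.93, 2.17 and 5.47 FPKM. Hoxc4 stood at 3.17 and 3.77 FPKM in cKO- and Het-labelled cells and at 6.23 and 6.58 in LacZ-positive and LacZ-negative cells, so that both LacZ libraries lay above both Ctnnb1 libraries.

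The highest Hox level in each library belonged to Hoxa7, a trunk gene of the vertebral column (mm9 chromosome 6, an interval from 52112349 to 52171853 that it shares with Hoxa2 to Hoxa6). It stood at 85.4 FPKM in cKO-labelled cells, 68.6 in Het-labelled cells, 34.0 in LacZ-positive cells and 83.2 in LacZ-negative cells, and made up 21.7%, 19.3%, 13.8% and 18.6% of the summed Hox FPKM. Among genes at 1 FPKM or more it stood at percentile 91.6, 90.1, 78.5 and 90.3 of level. LacZ-positive cells stood apart from the other 3 libraries at Hoxa7. Its paralog Hoxb7 stood at 14.4, 17.2, 11.8 and 19.7 FPKM.

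Hoxa5, which is needed for the airways and the neck-to-chest skeleton, stood at 31.2 FPKM in cKO-labelled cells, 26.7 in Het-labelled cells, 21.1 in LacZ-positive cells and 49.5 in LacZ-negative cells. Its paralogs were lower: Hoxb5 stood at 4.32, 4.72, 5.36 and 8.35 FPKM and Hoxc5 at 3.16, 2.75, 4.17 and 6.23 FPKM. All 3 paralogs of number 6 were well expressed. Hoxc6 stood at 30.8, 27.4, 19.5 and 31.0 FPKM, Hoxb6 at 20.7, 21.7, 18.7 and 39.3 FPKM, and Hoxa6 at 18.6, 16.0, 10.4 and 14.3 FPKM. Hoxc8, a patterning gene of the chest vertebrae, stood at 30.2 FPKM in cKO-labelled cells and 30.7 in Het-labelled cells, and at 22.9 in LacZ-positive cells and 36.7 in LacZ-negative cells. Hoxb8 stood at 17.4, 15.7, 9.33 and 18.8 FPKM.

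At the tail end of the block, Hoxb9 had the largest difference of the measured Hox genes in both pairs. Hoxb9, a rib patterning gene that is alone in its interval (mm9 chromosome 11, 96132770 to 96137909), stood at 18.7 FPKM in cKO-labelled cells, 9.21 in Het-labelled cells, 5.18 in LacZ-positive cells and 15.2 in LacZ-negative cells. Hoxa9, best known from blood progenitors and leukaemia, stood at 3.85, 2.16, 3.55 and 8.20 FPKM. The summed level of the 4 paralog 9 genes was 24.1 FPKM in cKO-labelled cells against 12.5 in Het-labelled cells, and 9.15 in LacZ-positive against 24.3 in LacZ-negative cells. Hoxc13 (mm9 chromosome 15, 102751533 to 102759245, alone in its interval) stood at 7.60 FPKM in cKO-labelled cells, 11.9 in Het-labelled cells, 12.6 in LacZ-positive cells and 19.3 in LacZ-negative cells. The other 11 genes of paralogs 10 to 13 had a highest value of 0.203 FPKM.

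The first comparison concerns Hox levels with both rather than 1 of the Ctnnb1 copies floxed. On the log2(FPKM + 1) scale, 15 of 24 measured Hox genes were higher and 9 lower in cKO-labelled cells, and none differed by 2-fold or more. Of 13014 genes that reached 1 FPKM in either library, 39.1% were lower, 1.8% were 2-fold or more higher and 2.29% were 2-fold or more lower, so the Hox counts lay near those of all genes. The Hox median difference was 0.09 and that of all genes 0.06. All 8 measured Hoxa genes (0.01 to 0.62) and all 3 measured Hoxd genes (0.05 to 0.59) were higher in cKO-labelled cells, while 6 of 8 Hoxb genes (down to -0.26) and 3 of 5 Hoxc genes were lower. Hoxa2 to Hoxa7 share an interval, as do the 3 Hoxd genes, so genes of a cluster are not separate observations. The largest differences were Hoxb9 at 0.95, a ratio of 2.03 in FPKM, then Hoxa9 at 0.62, Hoxd8 at 0.59 and, on the lower side, Hoxc13 at -0.58, a ratio of 0.641. The authors' deposited table gives log2 fold changes of 1.02 for Hoxb9, 0.84 for Hoxa9 and -0.64 for Hoxc13, without a pseudocount.

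With differences centred on genes that had 5 FPKM or more in each library, 12 Hox genes were higher and 12 lower, since Hoxa2, Hoxa3 and Hoxd4 changed side. The fibroblast and dermal papilla list, whose cells carry Hox codes of their own, had a summed level of 23.1 FPKM in cKO-labelled cells and 14.8 in Het-labelled cells. Of its 6 markers 2 reached 1 FPKM: Col1a1 stood at 10.3 and 3.72, and Col1a2 at 12.5 and 10.8. Its defining genes Pdgfra, Dcn, Lum and Col3a1 were at or under 0.204 FPKM in both libraries, with Lum listed at 0 in Het-labelled cells. Its part in the result was not tested.

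**Figure D2:**
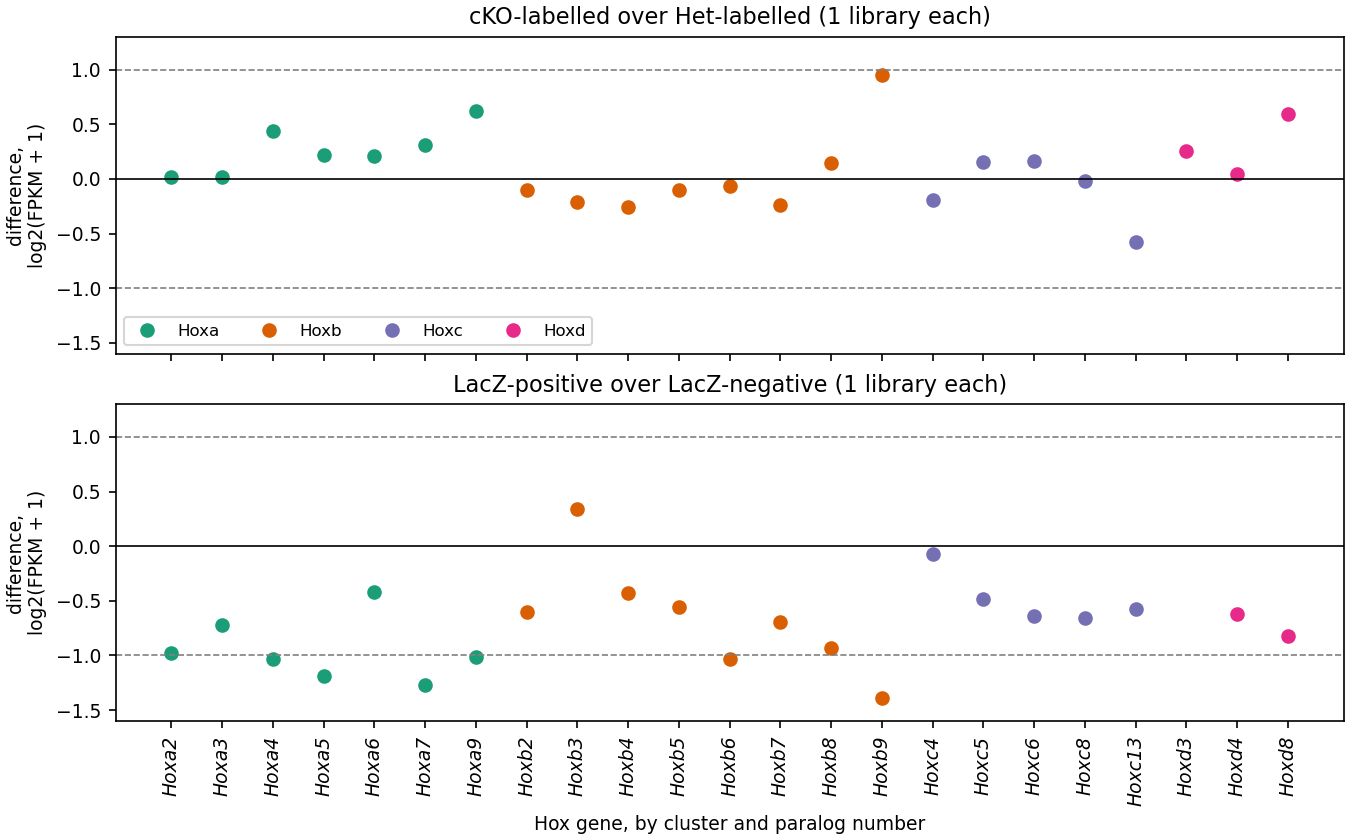
Difference of the Hox genes shown that reached 1 FPKM in the pair, on the log2(FPKM + 1) scale, the cKO-labelled over the Het-labelled library above and LacZ-positive over LacZ-negative below, coloured by cluster, with dashed 2-fold lines. In the first pair the points scatter around 0 between -0.58 and 0.95, and in the second all but Hoxb3 lie below 0.

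The second comparison sets bulge cells sorted as positive for LacZ activity against those sorted as negative. The negative sort still held 9.10 FPKM of Axin2, where the positive sort held 18.98. On the log2(FPKM + 1) scale this difference was 0.98, short of the 2-fold line. The 2 sorts thus stand for higher and lower Axin2, not for its presence and absence. Hox genes were lower in LacZ-positive cells almost throughout: 22 of 23 measured genes, 95.7%, against 63.4% of all 13283 genes measured in this pair. By 2-fold or more, 6 Hox genes were lower, 26.1%, where 2.6% of all genes were, and 0 were higher, where 4.67% of all genes were. The Hox median difference was -0.69 and that of all genes -0.13. The summed Hox FPKM was 246 in LacZ-positive cells and 448 in LacZ-negative cells.

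The genes past the 2-fold line were Hoxb9 (-1.39, a ratio of 2.92 in favour of LacZ-negative cells), Hoxa7 (-1.27, ratio 2.45), Hoxa5 (-1.19, ratio 2.34), Hoxb6 (-1.04), Hoxa4 (-1.03) and Hoxa9 (-1.02). In plain FPKM their ratios ran from 2.11 (Hoxb6) to 2.92, and had to lie above 2 by the way the 6 were chosen. Further genes had a plain ratio above 2 in favour of LacZ-negative cells, among them Hoxd4 (2.51), Hoxa2 (2.09) and Hoxb8 (2.01). By cluster, all 8 measured Hoxa genes were lower, from -0.42 at Hoxa6 to -1.27 at Hoxa7 with a median of -0.998. Of the Hoxb genes 7 of 8 were lower with a median of -0.65, and Hoxb3 was at 0.34. All 5 Hoxc genes were lower with a median of -0.58, with Hoxc4 at -0.07 and Hoxc13 at -0.58. The 2 measured Hoxd genes, Hoxd4 and Hoxd8, were at -0.62 and -0.82. Here too, Hoxa2 to Hoxa7 share an interval, as do Hoxd4 and Hoxd8, so genes of a cluster are not separate observations.

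Genes of this pair leaned lower as a whole, with a median of -0.17 among the 9252 genes that had 5 FPKM or more in each library. Relative to that median the Hox median was -0.52, 21 of 23 Hox genes were lower, Hoxc4 turned to above it, and Hoxa5, Hoxa7 and Hoxb9 remained past the 2-fold line, so the count of 6 depends on the scaling. The 3 measured genes alone in their interval, Hoxb9, Hoxc4 and Hoxc13, were all lower, with a median of -0.58. Beside this result, the fibroblast and dermal papilla list had a summed level of 10.9 FPKM in LacZ-positive cells and 18.1 in LacZ-negative cells, with 3 of 6 markers at 1 FPKM in either, Lum listed at 0 in LacZ-positive cells and Pdgfra and Col3a1 at or under 0.131 FPKM. Col1a1 (6.29 and 13.1) and Col1a2 (2.38 and 4.34) were lower in LacZ-positive cells and Dcn (2.16 and 0.423) was higher. Of the 8 bulge and basal keratinocyte markers, 4 were lower in LacZ-positive cells: Cd34 (223 against 516 FPKM), Krt5, Sox9 and Lhx2. The 4 higher ones were Krt15 (5951 FPKM against a listed 0), Krt14 (2144 against 1714), Itga6 and Lgr5. Krt15 stood at 7528 and 6208 FPKM in cKO- and Het-labelled cells, so its listed 0 is uncertain as a level. Itga6 and Lgr5 differed little, by 0.05 and 0.09. The leukocyte sum was 5.30 FPKM in LacZ-positive against 1.95 in LacZ-negative cells, with both measured markers, Cd74 and Cd52, higher and a median difference of 0.94. The melanocyte sum, 18.1 against 13.5 FPKM, was also higher in LacZ-positive cells. The part of these markers in the result was not tested.

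**Figure D3:**
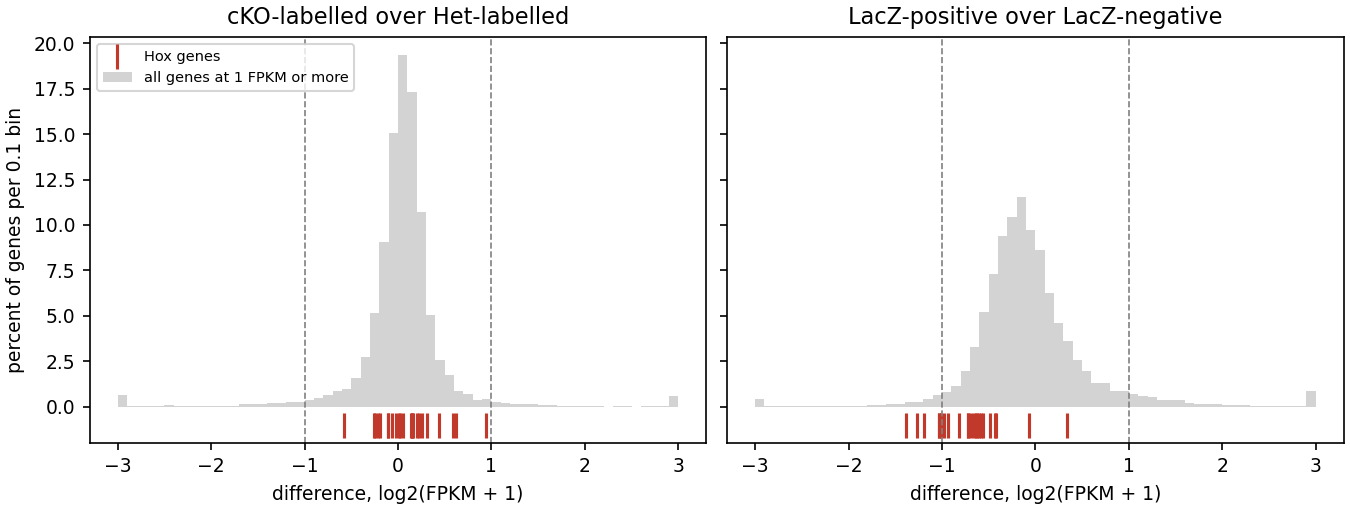
Distribution of the difference on the log2(FPKM + 1) scale over all genes that reached 1 FPKM in either library (gray bars, percent of genes per bin, end bins hold all values beyond them), with the Hox genes as red ticks, for cKO-labelled over Het-labelled cells and LacZ-positive over LacZ-negative. In the LacZ pair 22 of 23 ticks lie below 0 and 6 at or beyond -1.

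The 2 comparisons share no library. Of the 23 Hox genes measured in both, 14 were higher in cKO-labelled cells and lower in LacZ-positive cells. Another 8 were lower in both cKO-labelled cells and LacZ-positive cells: Hoxb2, Hoxb4, Hoxb5, Hoxb6, Hoxb7, Hoxc4, Hoxc8 and Hoxc13. The remaining gene, Hoxb3, was lower in cKO-labelled cells and higher in LacZ-positive cells. All genes leaned the way of the 14, with 39.1% lower in cKO-labelled cells and 63.4% lower in LacZ-positive cells. The share of all genes that took both directions was not computed, so the 14 cannot be set against it. Of the 14, Hoxa2, Hoxa3 and Hoxd4 changed side when the first pair was centred. The order of levels among the 24 genes at 1 FPKM or more was close within a pair, with Spearman's rho of 0.95 between cKO- and Het-labelled cells and 0.94 between LacZ-positive and LacZ-negative cells. Between pairs it ran from 0.73 for cKO-labelled cells with LacZ-positive to 0.86 for Het-labelled cells with LacZ-negative cells. These correlations are across genes, which share libraries and intervals and are not replicates.

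The widest gaps between the pairs lay in the Hoxd cluster. Hoxd8, active in the trunk, stood at 23.9 FPKM in cKO-labelled cells and 15.5 in Het-labelled cells and at 3.50 in LacZ-positive cells and 6.93 in LacZ-negative cells. Hoxd4 stood at 8.94 and 8.61 FPKM in cKO- and Het-labelled cells and at 0.554 and 1.39 in the LacZ libraries. Hoxd3 stood at 6.41 and 5.21 FPKM against 0.637 and 0.815. At each of these 3 genes the lower Ctnnb1 library lay above the higher LacZ library by 2-fold or more, by ratios of 2.24 (Hoxd8), 6.20 (Hoxd4) and 6.39 (Hoxd3) in FPKM. Such a gap was found in 3 of 24 Hox genes and 1.81% of all 13797 genes at 1 FPKM or more in any library, and the opposite gap in 0 Hox genes and 2.38% of all genes. The 3 genes lie in the same interval, so they are not 3 separate observations to set against that share. The Hoxd cluster made up 10.1% and 8.48% of the summed Hox FPKM in cKO- and Het-labelled cells and 2.02% and 2.13% in LacZ-positive and LacZ-negative cells.

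Counting any gap, both Ctnnb1 libraries lay above both LacZ libraries at 4 of 24 Hox genes (Hoxa6 and the 3 Hoxd genes), where 25% of all genes did so. Both LacZ libraries lay above at 5 (Hoxb2, Hoxb5, Hoxc4, Hoxc5 and Hoxc13), where 30.9% of all genes did so. These shares are near or under those of all genes. The pairs differ in age, sex, strain, transgenes and table, which cannot be told apart here, and the tables may have been normalized separately. The Hoxc share, 19.3% and 21.7% of the summed Hox FPKM in cKO- and Het-labelled cells and 26.7% and 22.5% in LacZ-positive and LacZ-negative cells, was highest in LacZ-positive cells. The Hoxa share was 45.5%, 42.8%, 38.7% and 45.7% in the same order and the Hoxb share 25.1%, 27.0%, 32.5% and 29.7%.

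**Figure D4:**
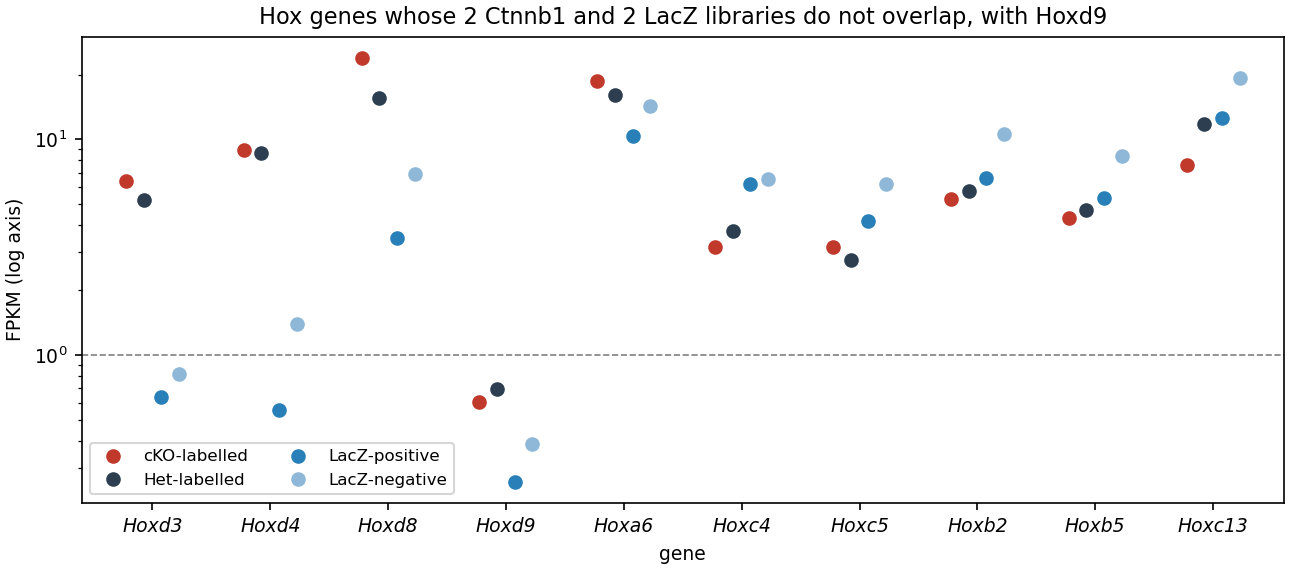
FPKM on a log axis in each library (1 point per library) of the Hox genes at 1 FPKM or more whose Ctnnb1 and LacZ libraries do not overlap, with Hoxd9 beside them and the dashed line at 1 FPKM. Hoxd3, Hoxd4 and Hoxd8 show the widest gaps, with both LacZ points below both Ctnnb1 points.

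Hoxa7 was the highest member, Hoxb8 and Hoxd8 were lower in LacZ-positive cells (-0.94 and -0.82), and Hoxd8 also differed between the pairs. The regions upstream of these 3 Hox genes are shown. They were searched for the TCF/LEF word CTTTGAA and its other forms, which are first CTTTGAT, then also CTTTGTA and finally the form CTTTGTT, since TCF/LEF factors carry β-catenin to DNA, and for TGATNNAT, a word bound by Hox and Pbx proteins together, on both strands. The end of CTTTGAT is the start of TGATNNAT, so the words can overlap. The bases are the 250 before the gene start, from RefSeq (GRCm38.p6), written 5′ to 3′ on the strand of the gene. Capitals mark a match. The regions of Hoxa2, Hoxa5 and Hoxa9 were also searched and are not shown, though these genes differed more in the LacZ pair (-0.98, -1.19 and -1.02). Hoxb8 and Hoxd8 held matches, so the 3 regions shown are not typical of the 12 searched among genes at 1 FPKM or more.
Hoxa7 (chr6:52218574-52218823, minus strand): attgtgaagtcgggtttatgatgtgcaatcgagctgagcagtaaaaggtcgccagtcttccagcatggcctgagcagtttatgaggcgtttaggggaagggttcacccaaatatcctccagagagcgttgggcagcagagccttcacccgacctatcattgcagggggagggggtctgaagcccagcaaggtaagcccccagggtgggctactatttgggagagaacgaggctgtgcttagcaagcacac
Hoxb8 (chr11:96281655-96281904, plus strand): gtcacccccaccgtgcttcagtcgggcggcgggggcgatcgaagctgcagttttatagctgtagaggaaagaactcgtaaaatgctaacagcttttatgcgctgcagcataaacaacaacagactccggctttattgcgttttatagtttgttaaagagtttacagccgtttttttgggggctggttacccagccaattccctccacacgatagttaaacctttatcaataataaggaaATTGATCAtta
Hoxd8 (chr2:74704365-74704614, plus strand): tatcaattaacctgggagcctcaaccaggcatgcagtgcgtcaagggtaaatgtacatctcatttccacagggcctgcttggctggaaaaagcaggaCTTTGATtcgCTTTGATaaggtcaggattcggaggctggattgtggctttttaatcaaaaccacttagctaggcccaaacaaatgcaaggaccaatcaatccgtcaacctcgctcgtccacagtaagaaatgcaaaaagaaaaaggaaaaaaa

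Hoxd8 held CTTTGAT at 2 places, whose ends lie 146 and 136 bases before the window's end, Hoxb8 held 1 match to TGATNNAT on the opposite strand, and Hoxa7 held no match. RefSeq windows were found for 22 of the 39 Hox genes, 12 of them among the 24 at 1 FPKM or more. Of these 12 windows 1 held a TCF/LEF word (Hoxd8), against 14.8% of all 32851 windows of the same length, and 2 held TGATNNAT (Hoxa2 and Hoxb8), against 7.68%. Of the 6 genes 2-fold lower in LacZ-positive cells, Hoxa5, Hoxa7 and Hoxa9 had a window, and it held neither word. The matches are letters in these windows and not measured binding sites.

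Hox proteins bind DNA together with the homeodomain proteins of the Pbx, Meis and Pknox families. Of 9 such cofactor genes, 8 reached 1 FPKM in each pair, and 0 differed by 2-fold or more in either. In cKO-labelled cells 5 were higher and 3 lower (median 0.03), and in LacZ-positive cells 2 were higher and 6 lower (median -0.16, where all genes had -0.13). Pbx2 stood at 19.8 FPKM in cKO-labelled cells, 18.8 in Het-labelled cells, 17.8 in LacZ-positive cells and 20.9 in LacZ-negative cells, and Pbx3 at 15.4, 15.7, 15.3 and 16.5 FPKM. In the LacZ pair Pbx2 and Pbx3 had differences of -0.22 and -0.10 on the log2(FPKM + 1) scale. Pknox2 went the way of the Hoxd genes between the pairs, at 7.58 and 5.11 FPKM in cKO- and Het-labelled cells against 0.799 and 1.13 in LacZ-positive and LacZ-negative cells.

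Trithorax-type complexes keep Hox genes active, and Cdx factors switch them on in the embryo. Of 13 genes of both kinds, 10 reached 1 FPKM. Of these, 4 were higher and 6 lower in cKO-labelled cells (median -0.02), and 4 were higher and 6 lower in LacZ-positive cells (median -0.06), with 0 past the 2-fold line in either pair. By their mean over the libraries, Dpy30 was highest, at 31.2 FPKM in cKO-labelled cells, 27.6 in Het-labelled cells, 32.0 in LacZ-positive cells and 37.6 in LacZ-negative cells. Mll5 stood at 29.9, 29.0, 25.7 and 22.2 FPKM, and Ash2l at 20.5, 20.6, 28.3 and 30.3 FPKM. Cdx1 and Cdx2 are listed at 0 in every library and Cdx4 stayed near 0. Men1, the menin gene, which tethers Mll1 to Hox genes, had the largest difference of the list in the LacZ pair (-0.77, 14.1 against 24.7 FPKM), chosen after its values were seen.

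Hair genes linked to Hoxc13 were nearly silent in these stem cells. Of 14 on the list 13 were in the tables, and 1 reached 1 FPKM in the first pair and 3 in the second. The hair cuticle keratin gene Krt32 stood at 2.26 FPKM in cKO-labelled cells, 4.18 in Het-labelled cells, 6.72 in LacZ-positive cells and 8.69 in LacZ-negative cells, in the same order of libraries as Hoxc13. Foxn1, a factor of hair shaft differentiation, stood at 0.435, 0.390, 1.13 and 0.674 FPKM, and Krt35 at 0.0116, 0.0990, 1.23 and 0.382 FPKM. In the LacZ pair 2 of the 3 were thus higher in LacZ-positive cells, where Hoxc13 was lower.

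Other transcripts of the clusters were read from all 26 remaining rows between the outermost Hox genes, a set chosen by position after values had been seen. Of 21 rows that are no hairpins, 11 reached 1 FPKM in any library, where 13797 of all 28792 symbols did so. All 11 were lower in LacZ-positive cells and 4 of them by at least 2-fold, where 63.4% and 2.6% of all genes were, and their median was -0.51. All of the 11 but Gm53 share an interval with Hox genes, so reads of those Hox genes can enter their values. Their direction is thus not separate from that of the Hox genes. At 5730596B20Rik the values were nearly equal, 2.969 and 2.974 FPKM, and relative to the median of -0.17 it and 2700086A05Rik lay above. In the first pair 7 of the 11 were higher and 4 lower in cKO-labelled cells, where 39.1% of all genes were lower. Gm53, between Hoxb13 and Hoxb9 (mm9 chromosome 11, 96112418 to 96126182), stood at 99.6 FPKM in cKO-labelled cells, 44.9 in Het-labelled cells, 10.3 in LacZ-positive cells and 78.5 in LacZ-negative cells. This is the order of libraries seen at its neighbour Hoxb9, and at differences of 1.13 and -2.82 it lay past the 2-fold line in both pairs.

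0610040B09Rik, in the interval of Hoxb5 and Hoxb6, was lower by 2-fold or more in cKO-labelled cells (12.4 against 32.1 FPKM) and in LacZ-positive cells (18.3 against 47.3). Gm15051, of the Hoxa cluster, stood at 52.5, 33.0, 35.5 and 73.2 FPKM, with LacZ-negative cells highest. 1700109F18Rik, in the interval of Hoxd3, Hoxd4 and Hoxd8, stood at 19.9, 13.4, 1.63 and 6.42 FPKM, with both LacZ libraries below both Ctnnb1 libraries as at those genes. Hoxb3os, the antisense transcript of Hoxb3, stood at 20.7, 25.2, 26.2 and 37.6 FPKM. In the LacZ pair it was at -0.51, where Hoxb3 was at 0.34. No strand setting of the counting is given in the sources used here, so reads of a gene and its antisense partner cannot be told apart.

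**Figure D5:**
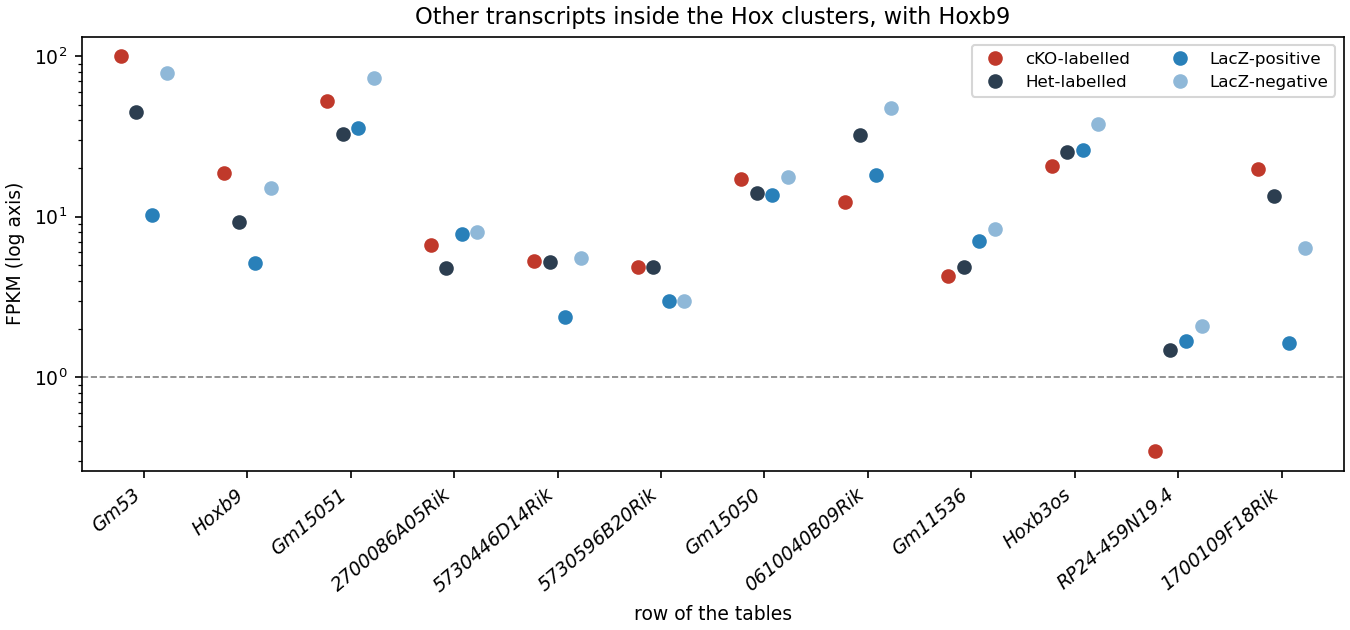
FPKM on a log axis in each library (1 point per library) of the 11 other transcripts inside the Hox clusters at 1 FPKM or more in any library, with Hoxb9 beside its neighbour Gm53 and the dashed line at 1 FPKM. The LacZ-positive point lies below the LacZ-negative point at all 11, by the widest margin at Gm53 and 1700109F18Rik.

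The clusters also hold miRNA genes, and the 5p strands of Mir10a, Mir10b, Mir196a-1 and Mir196b are shown because these 4 share 2 seeds, bases 2 to 8 (capitals), and target Hox transcripts in other settings. Their 3p strands and both strands of Mir615 have other seeds and are not shown. The sequences are from RefSeq (GRCm38.p6).
mmu-miR-10a-5p (Hoxb cluster, plus strand): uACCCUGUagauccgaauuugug
mmu-miR-10b-5p (Hoxd cluster, plus strand): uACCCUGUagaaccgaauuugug
mmu-miR-196a-5p (Hoxb and Hoxc clusters, plus strand): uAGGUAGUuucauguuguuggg
mmu-miR-196b-5p (Hoxa cluster, minus strand): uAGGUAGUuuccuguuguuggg

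Counted from the 5′ end, the first pair differs by 1 base (U12A) and the second by 1 base (A12C). The mRNA libraries do not measure mature miRNAs, and the rows of hairpins are short features whose FPKM and exact zeros are uncertain. Of 12 RNAs of the clusters on the list, 7 were in the tables, and 5 of them reached 1 FPKM. Mir196a-1 stood at 781 FPKM in cKO-labelled cells, 607 in Het-labelled cells, 144 in LacZ-positive cells and 176 in LacZ-negative cells. Mir10a (30.4 against 7.57) was higher and Mir10b (77.3 against 176) lower by 2-fold or more in cKO-labelled cells, and both are listed at 0 in the LacZ pair. Mir615 is listed at 0 in cKO-labelled cells and stood at 10.6 FPKM in Het-labelled cells, 19.8 in LacZ-positive cells and 22.2 in LacZ-negative cells. Mir196b and the antisense RNA Hoxa11as are listed at 0 in every library.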

How the data were processed

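RNA sequencing libraries of 4 sorted mouse cell populations were used, with groups from the sample labels. The deposited values are FPKM, per the file headers, in 2 gene tables of 32091 rows each. The first table also holds the authors' deposited log2 fold change of cKO-labelled over Het-labelled cells, printed only as theirs, which was within 0.01 of the log2 FPKM ratio in all 32 Hox rows with both values above 0. Tools named without a role in the submitters' processing notes are Cufflinks 2.1.1, TopHat and TopHat2 2.0.4, beside builds mm9 and GRCm38. Coordinates are taken as mm9, since chromosome 7 reaches 152509964 in the tables and 145324059 in the GRCm38 gene table. The share of mt-Ts1 in a library's summed FPKM, 20.6% to 28.1%, can shift all other values.

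Rows of 1 symbol were summed, after 25 symbols turned into dates were restored from identifiers. The difference of a pair is the log2 ratio of (FPKM + 1), for genes that reach 1 FPKM in the pair, and understates changes of low genes. A gene at a difference of 1 or -1 or beyond counts as differing by 2-fold. With 1 library per group no test was run. Hox genes at 1 FPKM or more in any library were named with all their values; of the 4 further lists the 3 highest genes and any past 2-fold were named, and others only after their values were seen. Of the genes this rule names, 2 are not reported here, though the counts hold them. Members and lists were chosen with earlier results of these data known. Alternatives changed the threshold, pseudocount, minimum, centring, scaling, row choice and overlapping genes. The steps were tested on simulated data. Python 3.11.15 and pandas 2.3.3 were used.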

Additional observations from a re-analysis of the deposited data

How the results depend on the processing

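Of 76 values under alternatives for 14 results, 57 stayed close to the main value (counts within 1.5 times, medians within 0.1, shares within 5 percentage points). No paired analysis was possible because each group has 1 library. Restricting the analysis to genes alone in their interval leaves 3 measured Hox genes and moved the most. The count at 1 FPKM was then 3 in each of the 4 libraries, in place of 22 to 24. The Hoxc share became 35.7% in cKO-labelled cells, 61.1% in Het-labelled cells, 77.1% in LacZ-positive cells and 62.5% in LacZ-negative cells, since Hoxc13 and Hoxc4 are 2 of the 3. The median turned to -0.19 in cKO-labelled over Het-labelled cells, where Hoxc4 and Hoxc13 are lower and Hoxb9 higher, and was -0.58 in the LacZ pair, with 1 gene 2-fold lower.

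In the LacZ pair the Hox median stayed negative in all alternatives: -0.55 with pseudocount 5, -0.46 with no minimum, -0.52 with centring and -0.51 with upper-quartile scaling. The count of Hox genes lower by 2-fold or more, 6 in the main setting, rose to 9 with pseudocount 0.1, with Hoxa2 and Hoxd4 among those added. It fell to 2 with pseudocount 5 (Hoxa5 and Hoxa7), 3 with centring (Hoxa5, Hoxa7 and Hoxb9) and 2 with upper-quartile scaling (Hoxa7 and Hoxb9). In cKO-labelled over Het-labelled cells, pseudocount 0.1 put 1 Hox gene, Hoxb9, past the 2-fold line on the higher side. Depth is unknown, so no counting limit can be given for the genes near 0.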
